A study of Canis lupus familiaris with 30 samples.

Results

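Stroma is the connective tissue that surrounds epithelium, built of fibroblasts, vessels, immune cells, fat cells and the matrix they lie in. In a mammary carcinoma the stroma next to the tumour, the cancer-associated stroma (CAS), differs in its transcription from normal stroma further away. Besides that difference between stroma types, each animal has a level of its own for many genes, set by its genome, its hormonal state, its age and the cells that happen to be present, and a gene governed mainly by the animal should be high in both stroma types of one dog and low in both of another.

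The 60 genes described here were chosen on exactly that pattern. RNA from CAS and from matched normal stroma of female dogs with a simple mammary carcinoma (mCA) had been isolated by laser-capture microdissection, in which chosen areas are cut from a section, out of archived formalin-fixed paraffin-embedded tissue, and sequenced as 30 libraries from 15 dogs, with 1 library of each stroma type per dog. Levels were expressed as CPM, the estimated count of a gene per 1000000 counts of its library, and as log2(CPM + 1). Dogs 128 and 136, whose normal stroma libraries held 29284 and 32528 counts, were left out of the choice, so that 26 libraries of 13 dogs remained. A gene was eligible if its median CPM lay between 10 and 500 in CAS and in normal stroma and if both medians were within 4-fold of each other, and 6368 of the 18582 listed genes met these limits. A member was an eligible gene whose log2(CPM + 1) in CAS and in normal stroma of the same dog correlated over the 13 dogs with a Pearson r of at least 0.8. The 60 members are therefore selected on the measured values, and their r describes the selection and is no evidence for it.

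All tumours were spontaneous carcinomas of simple type, removed from canine patients at curative surgery. The labels and the study's methods state no treatment of the dogs or of the tissue before surgery. Of the 13 dogs, 5 were labelled neutered (109, 130, 131, 132 and 137) and 8 were labelled female without that word (121, 123, 126, 127, 134, 135, 138 and 139). The subtype label was tubular in 7 dogs (123, 126, 127, 130, 132, 135 and 137) and tubular-solid, tubulo-papillary, cribriform or cystic-papillary in the other 6. The dogs were between 4 and 14 years old, the samples were between 3 and 23 months old at analysis, and the 11 dogs with a stated breed were of 11 different breeds, so that breed cannot be told apart from the single dog. Normal stroma came from the same slide as CAS, from areas chosen by a pathologist at a distance from the tumour. It is thus tissue of a tumour-bearing gland and not of a healthy one, and both libraries of a dog share its genome as well as its surgery, fixation, block and slide. These shared properties cannot be told apart in this design. Total counts in the 26 libraries were between 1361951 and 5572761 in CAS (median 3663608) and between 617177 and 3932370 in normal stroma (median 2542342). The lowest were those of dog 130 in CAS and dog 131 in normal stroma.

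Genes are given by their Ensembl dog identifiers. No identifier could be paired with a symbol by the tables used here, so the functions of the members, the cell type markers of the stroma and its gene pathways were not analysed, and no sequence is shown. In bulk samples such as these, fewer cells of a type and less RNA per cell cannot be told apart.

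Over the 6368 eligible genes, the r between CAS and normal stroma of the same dog had a median of 0.28, and the central 90% of genes lay between -0.27 and 0.69. The 60 members made up 0.942% of the eligible genes. CAS of each dog was then set against normal stroma of another dog, in 100 random re-pairings in which no dog was matched with itself. Between 0 and 19 genes reached an r of 0.8, with a median of 2 and a mean of 3.26. The median r over all eligible genes lay between -0.20 and 0.17 in single re-pairings, with a median of -0.02. The shift of the same-dog distribution was thus shared by most eligible genes and was not particular to the members, which form its upper end. Of the members, 7 had an r of at least 0.9, 12 lay between 0.85 and 0.9 and 41 between 0.8 and 0.85. The last 2 genes inside the limit had an r of 0.802 and 0.801, and the first 2 outside had 0.797 and 0.797. Another 95 eligible genes lay between 0.75 and 0.8, so the limit does not separate a distinct class of genes.

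**Figure D1:**
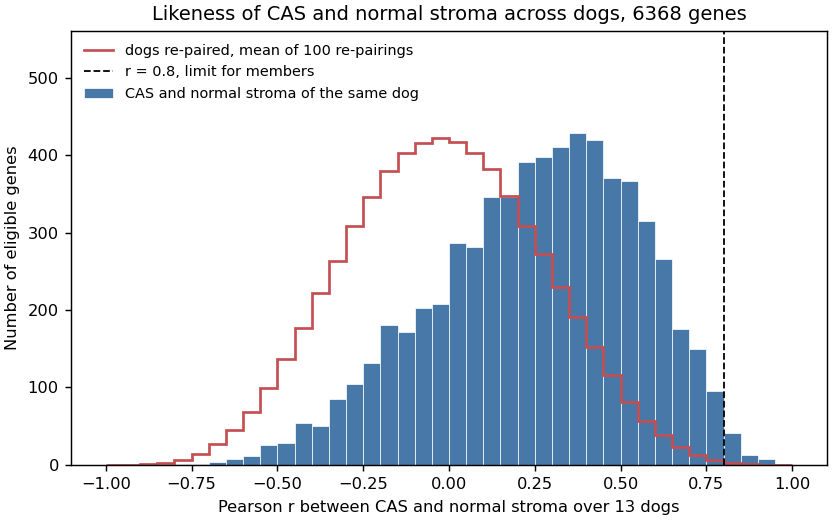
Distribution of the Pearson r between CAS and normal stroma over 13 dogs for the 6368 eligible genes (horizontal axis r, vertical axis number of genes). Blue bars show libraries of the same dog (median 0.28), the red outline shows the mean of 100 re-pairings of the dogs (median -0.02), and the dashed line marks the limit of 0.8, beyond which 60 genes lie.

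The members differed between dogs more than the other eligible genes did, and their difference between CAS and normal stroma varied less from dog to dog. The mean log2(CPM + 1) of both libraries of a dog spanned a median of 2.67 between the highest and the lowest dog, a 6.36-fold range, compared to 1.80, a 3.49-fold range, for the 6308 other eligible genes. The SD between dogs had a median of 0.70 in members and 0.52 in other eligible genes. By contrast, the SD of the CAS minus normal stroma difference over dogs had a median of 0.47 in members and 0.82 in the others. The difference itself was not smaller, with a median of the mean CAS minus normal stroma of 0.32 in members and 0.22 in the others. The r depends on the ratio of both spreads, so these values describe the choice and were not tested. The range between dogs exceeded 4 on the log2 scale in 12 members (20%) and in 152 other eligible genes (2.41%), while 14 members spanned less than 2. The members covered the permitted levels: their median CPM in CAS lay between 11.0 and 330, and in normal stroma between 10.7 and 289.

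The same few dogs stood at the ends of the range in many members. Dog 123 was the highest of the 13 dogs in 37 of the 60 members, and dog 131 was the lowest in 29. They did so in the eligible genes as well, where dog 123 was highest in 50.6% and dog 131 lowest in 31.0% of genes. The median deviation of dog 123 from the mean of the dogs was 0.93 over members and 0.69 over all eligible genes, and that of dog 131 was -0.92 and -0.41. Dog 121 followed dog 123 at 0.64 over members and 0.37 over eligible genes. The composition of the libraries differed between dogs as well. The most abundant gene, the 1 with the most counts summed over the 26 libraries, took 13.8% of counts in CAS of dog 123. In normal stroma of that dog it took 15.8%. These were the lowest share in CAS and the second lowest in normal stroma. The same gene took 38.7% and 35.3% in dog 132. Across the 13 dogs the share in CAS and the share in normal stroma had an r of 0.56, a description over dogs whose libraries share tissue and slide. The level of a gene correlated with the share of the most abundant gene with a median r of -0.41 over members and -0.40 over eligible genes. With the logarithm of the total count the medians were 0.31 and 0.26. The part of library composition in the r of single members was not tested, but scaling by TMM, which reduces the weight of a few abundant genes, gives a measured value. On that scale 42 of 6534 eligible genes (0.643%) reached an r of 0.8, between 0 and 14 did so with re-paired dogs (mean 4.48), and the median same-dog r was 0.14. Of the 60 members, 21 kept an r of at least 0.8 under TMM library sizes and 22 fell below 0.7.

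**Figure D2:**
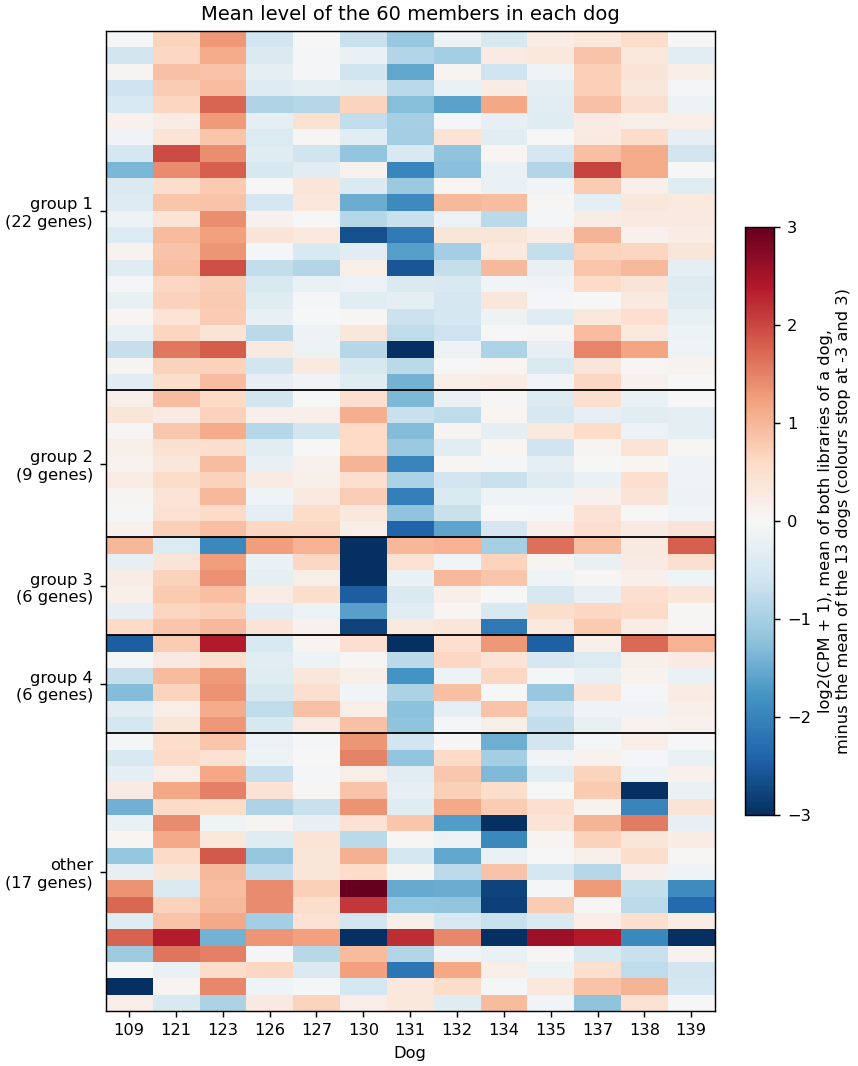
Mean log2(CPM + 1) of both libraries of each dog minus the mean of 13 dogs (colour, red above and blue below), for the 60 members (rows, in the groups described in the text) in the 13 dogs (columns). Dog 123 is red in most rows and dog 131 blue, dog 130 is blue throughout group 3, and among the 17 other genes single dogs such as 134 and 138 stand out.

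**Figure D3:**
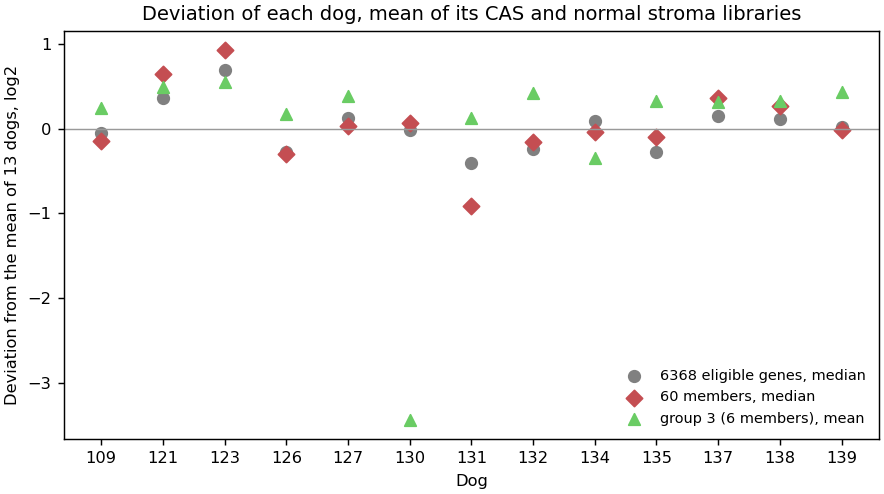
Deviation of each dog from the mean of 13 dogs on the log2 scale (vertical axis), as the median over 6368 eligible genes (grey circles), the median over the 60 members (red diamonds) and the mean over the 6 genes of group 3 (green triangles). Members follow the eligible genes in direction in dogs 121, 123 and 131 and lie further out, while group 3 drops to -3.44 in dog 130, where the eligible genes had a median of -0.01.

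The member with the highest r, ENSCAFG00000006809 (r 0.935, Spearman's rho 0.951), followed this general order of the dogs. In CAS its level was 188 CPM in dog 123, 108 in dog 121, 87.8 in dog 138, 85.0 in dog 137 and 84.6 in dog 135. It was between 49.5 and 63.9 CPM in dogs 109, 127, 132, 134 and 139, and 38.8, 36.7 and 31.6 CPM in dogs 126, 130 and 131. In normal stroma it was again highest in dog 123 at 94.9 CPM, followed by dog 138 at 70.8 and dog 121 at 69.1, and lowest in dog 131 at 17.8 CPM. The level was higher in CAS in 13 of 13 dogs, with means of 73.4 ± 41.1 CPM in CAS and 47.9 ± 20.5 CPM in normal stroma (SD, n = 13 dogs), and the order of the dogs was nearly the same in both stroma types. Leaving out any 1 dog kept its r at 0.917 or above. Under TMM library sizes its r was 0.734.

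ENSCAFG00000002646, with the next highest r (0.932, rho 0.890), had an order of its own. It was at 3.22 CPM in CAS and 1.18 CPM in normal stroma of dog 134, which were 16 and 3 counts, and at 9.28 and 6.50 CPM in dog 132. The other 11 dogs had between 33.9 and 159 CPM in CAS and between 13.8 and 55.0 CPM in normal stroma. Dog 123, highest in most members, was here at 36.7 CPM in CAS and 16.6 CPM in normal stroma, in the lower part of the range. The level was higher in CAS than in normal stroma in 13 of 13 dogs. Its r was 0.947 under TMM library sizes and 0.851 without dog 134, so it rested neither on the scaling nor on the lowest dog.

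**Figure D4:**
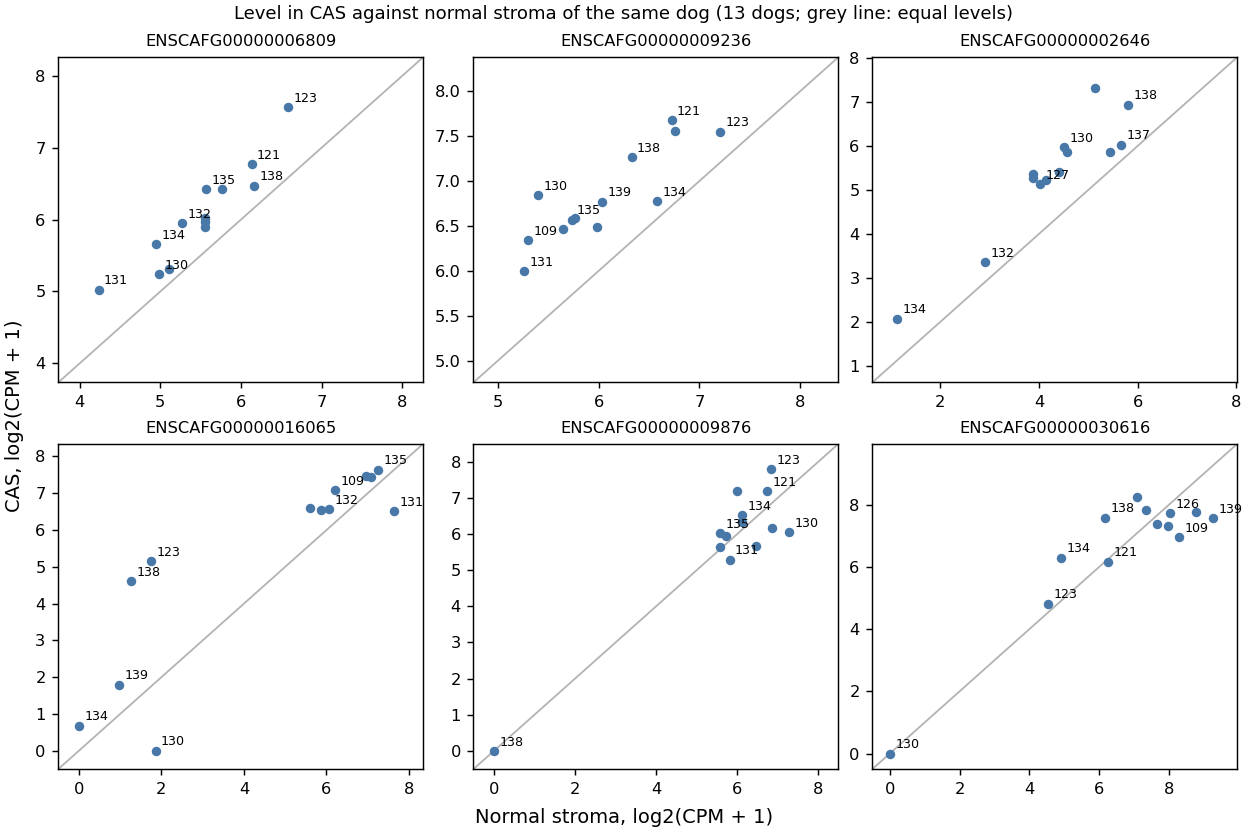
Level in CAS (vertical axis) against normal stroma (horizontal axis) of the same dog, both log2(CPM + 1), for 6 members; each point is 1 of 13 dogs, numbers name dogs where they do not overlap, and the grey line marks equal levels. In ENSCAFG00000006809 and ENSCAFG00000009236 the dogs form a continuous series, ENSCAFG00000016065 has a gap in normal stroma between 1.86 and 5.60, and in ENSCAFG00000009876 and ENSCAFG00000030616 a single dog lies at 0 in both.

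In 4 members there was no count at all in either library of 1 dog, whereas all libraries of the 12 other dogs held the transcript. Among the other eligible genes 19 of 6308 (0.301%) were at 0 in both libraries of at least 1 dog, compared to 4 of 60 members (6.67%), a difference that the choice on r favours. ENSCAFG00000030616 had the largest range of all members, 8.41 on the log2 scale. It had 0 counts in both libraries of dog 130, where 3 counts, the limit that a count of 0 allows, would be 2.20 CPM in CAS and 2.63 CPM in normal stroma. The 12 other dogs had a median of 177 CPM in CAS (27.1 to 299) and 180 CPM in normal stroma (22.0 to 609), so the median was at least 80.4-fold and 68.6-fold higher than this limit. These limits cover counting error only. At the median of the other dogs, 241 and 206 counts would have been found in the libraries of dog 130. Dog 123 was the next lowest in both stroma types, with 27.1 and 22.0 CPM. Without dog 130 the r fell from 0.914 to 0.714.

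ENSCAFG00000009876 was at 0 in both libraries of dog 138 and in those of no other dog. The 12 other dogs had a median of 68.3 CPM in CAS (37.9 to 221) and 68.9 CPM in normal stroma (46.8 to 154), at least 73.4-fold and 81.4-fold above the limit of dog 138. Its normal stroma library, with 3545904 counts, was the second largest of the 13. Among the dogs that had the transcript the order in CAS was only loosely that in normal stroma, and without dog 138 the r was 0.402. The r of 0.930 thus rested on the 1 dog that lacked counts.

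Both other genes with a dog at 0, ENSCAFG00000023582 and ENSCAFG00000001620, were again at 0 in dog 130, but at low levels elsewhere. ENSCAFG00000023582 had a median of 12.0 CPM in CAS and 12.7 CPM in normal stroma of the 12 other dogs, and ENSCAFG00000001620 had 16.7 and 11.9 CPM. At these levels between 13.6 and 22.8 counts would have been found in a library of dog 130. The medians were at least 5.45-fold and 4.83-fold above the limit for the former gene, and at least 7.59-fold and 4.53-fold for the latter. Without dog 130 their r fell to 0.453 and 0.435.

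ENSCAFG00000016065 separated the dogs into high and low ones, with a range of 7.11 on the log2 scale. In normal stroma 8 dogs had between 47.7 and 199 CPM (109, 121, 126, 127, 131, 132, 135 and 137), and 5 dogs had between 0 and 2.63 CPM (123, 130, 134, 138 and 139), a level of at most 7 counts. In CAS the same 8 dogs had between 90.5 and 198 CPM. Of the 5 low dogs, 3 were at 0, 0.603 and 2.46 CPM in CAS (130, 134 and 139), whereas dogs 123 and 138 had 34.6 and 23.3 CPM, from 119 and 75 counts. In dogs 123 and 138 the level in CAS thus lay between those of the other dogs, while their normal stroma was near 0. The r was 0.867, 0.890 under TMM library sizes and at least 0.825 whichever dog was left out. The low dogs were of both neuter labels and of both subtype classes.

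ENSCAFG00000004059 and ENSCAFG00000000641 moved together, with ranges of 5.93 and 4.93 on the log2 scale. ENSCAFG00000004059 was highest in dog 130, at 101 CPM in CAS and 245 CPM in normal stroma, and lowest in dog 134, at 0.804 and 2.75 CPM. ENSCAFG00000000641 was at 484 and 871 CPM in dog 130 and at 42.8 and 9.44 CPM in dog 134. By the mean log2(CPM + 1) of both libraries, dogs 126 and 109 came next after dog 130 in both genes, and dogs 131, 132 and 139 were the next lowest after dog 134. The order differed between the stroma types. Dog 126 had more of both transcripts in CAS, at 65.9 against 33.4 CPM and at 613 against 260 CPM, while dog 109 had more in normal stroma, at 17.4 against 111 CPM and at 229 against 1078 CPM. Over all dogs, ENSCAFG00000004059 was higher in CAS in 2 of 13 and ENSCAFG00000000641 in 7 of 13. Their r was 0.830 and 0.814, and under TMM library sizes 0.849 and 0.801.

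By the likeness of their level over the dogs (average linkage of the mean log2(CPM + 1) of a dog, joined down to an r of 0.6), the 60 members fell into 15 groups. Of these, 4 groups had at least 5 genes and held 43 members, and 6 genes stood alone. The r between pairs of members had a median of 0.42 and exceeded 0.6 in 29.8% of pairs, compared to 0.32 and 17.2% for pairs of eligible genes.

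Group 1, with 22 genes, had its highest mean in dog 123 and its lowest in dog 131, 5.24-fold apart, the dogs that were also most often highest and lowest among eligible genes. All 22 genes were above their own mean in both libraries of dog 123, 21 were so in dog 121 and 20 in dog 137, and 21 were below it in both libraries of dog 131. Closest to the group's mean was ENSCAFG00000009236, at 204, 187 and 186 CPM in CAS of dogs 121, 137 and 123 and 105, 107 and 146 CPM in their normal stroma, against 62.9 and 37.3 CPM in dog 131. Next came ENSCAFG00000018687, with 78.4, 65.7 and 68.1 CPM in CAS of the same high dogs. In dog 131 it was at 19.0 CPM in CAS and at 8.10 CPM, from 5 counts, in normal stroma. Under TMM library sizes the median r of the group was 0.718, against 0.823 on the column total, and 3 of the 22 genes kept an r of at least 0.8.

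Group 2, with 9 genes, was lowest in dog 131 as well, and 8 of the genes had their minimum there, but in addition dog 130 was high. ENSCAFG00000010762 was at 135 CPM in CAS and 173 CPM in normal stroma of dog 123, at 124 and 136 CPM in dog 130 and at 45.9 and 6.48 CPM in dog 131. ENSCAFG00000019085 was at 143 and 102 CPM in dog 123, at 115 and 146 CPM in dog 130 and at 27.9 and 8.10 CPM in dog 131. The values in normal stroma of dog 131, the shallowest library, lay apart from those of the other dogs. They were only 4 and 5 counts. Without dog 131 their r was 0.611 and 0.571. The median r of the group under TMM library sizes was 0.601, and ENSCAFG00000019085 was the single gene of the 9 that kept an r of at least 0.8, at 0.878.

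Group 3, with 6 genes, was set by dog 130. Its mean in that dog was 3.44 below the mean of the dogs, and all 6 genes were below their own mean in both libraries. The other 12 dogs lay between -0.35 and 0.55. Besides the genes ENSCAFG00000030616, ENSCAFG00000023582 and ENSCAFG00000001620 at 0 in that dog, the group held ENSCAFG00000017761, at 2.94 CPM in CAS and 3.50 CPM in normal stroma of dog 130 and at 13.8 to 42.9 CPM and 14.6 to 56.9 CPM in the other dogs. Apart from dog 130 the group was highest in dog 123, as the eligible genes were, and 5 of its genes had their maximum there. Under TMM library sizes 5 of its 6 genes kept an r of at least 0.8, with a median of 0.851, but a dog at or near 0 in both libraries keeps the r high under either scaling. Without dog 130 the r of ENSCAFG00000017761 was 0.474 on the column total. Dog 130 had the smallest CAS library, with 1361951 counts, and 12 eligible genes, including those 3 members, were at 0 in both of its libraries, more than in any other dog (0 to 4). The part of the lower depth in group 3 was not tested.

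Group 4, with 6 genes, was high in dog 123 and low in dogs 131, 135, 109 and 126, with means 7.07-fold apart at the ends. All 6 genes were above their mean in both libraries of dogs 121 and 123 and below it in both libraries of dogs 109, 126 and 131. ENSCAFG00000008873 had the widest range, 5.42 on the log2 scale. It was at 477 CPM in CAS and 333 CPM in normal stroma of dog 123 and at 275 and 219 CPM in dog 138, whereas dogs 109, 131 and 135 had between 14.0 and 16.2 CPM in CAS and between 4.86 and 11.2 CPM in normal stroma. The lowest of the other 10 dogs was at 66.7 CPM in CAS and 38.8 CPM in normal stroma. Its r was 0.914, 0.869 under TMM library sizes and at least 0.885 whichever dog was left out. ENSCAFG00000015345 spanned 37.9 to 208 CPM in CAS and 27.5 to 175 CPM in normal stroma, with dog 130 second highest in both, and its r under TMM library sizes was 0.679.

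**Figure D5:**
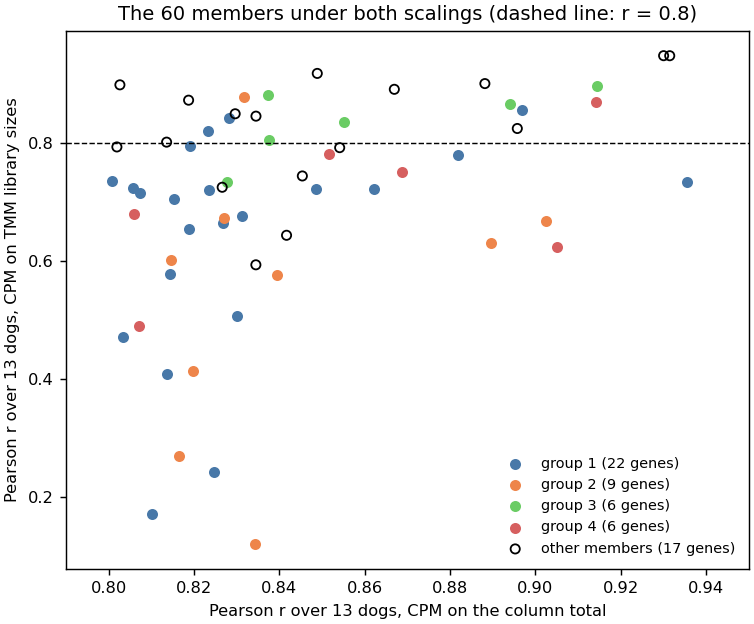
Pearson r of each of the 60 members over 13 dogs with CPM on the column total (horizontal axis) and with CPM on TMM library sizes (vertical axis), coloured by group; open circles are the 17 members outside the 4 larger groups. The dashed line marks an r of 0.8 under TMM, which 21 members reach, among them 5 of the 6 genes of group 3 and 3 of the 22 of group 1.

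The dependence on single dogs was measured for every member by leaving out each dog in turn. The r stayed at 0.8 or above whichever dog was left out in 17 members, its lowest value was at least 0.7 in 48, and it was under 0.5 in 4. Dog 131 gave the lowest value in 17 members, dog 123 in 14, dog 130 in 11 and dog 134 in 7. Spearman's rho, which uses only the order of the dogs, was at least 0.8 in 24 members and under 0.6 in 6.

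The question of the study was how CAS differs from normal stroma, and the members were next set against that comparison, over the same 26 libraries. Tested in edgeR by quasi-likelihood, with 7 surrogate variables in the model, 565 of 10463 genes (5.4%) changed more than 2-fold at an FDR (Benjamini-Hochberg) under 0.01, of which 256 were higher and 309 lower in CAS. A single member of 60 (1.67%) was among them, compared to 199 of the 6368 eligible genes (3.12%). The limit on the medians bounds the change a member can show, and the order of both shares turned in the paired fit. The log2 fold changes of the members lay between -1.46 and 1.46 with a median of 0.01, against 0.04 over all genes, and 47 were within 0.5 of 0. On the column total the mean log2(CPM + 1) was higher in CAS for 47 of 60 members and 4543 of 6308 other eligible genes, whereas the log2 fold change with TMM was positive for 39 of 60 members without surrogate variables, for 33 with them and for 41 with the dog as a block, so the direction of small differences depended on the scaling and on the model. At an unadjusted p below 0.05 there were 13 members (21.7%), compared to 25.3% of eligible genes and 26.3% of all genes.

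The member called higher in CAS was ENSCAFG00000001101, of group 1. It was at 351, 305, 230 and 230 CPM in CAS of dogs 123, 137, 138 and 121 and at 61.7, 98.9, 36.7 and 56.7 CPM in their normal stroma, while CAS of the other 9 dogs had between 20.5 and 88.8 CPM. The level was higher in CAS in 12 of 13 dogs, with dog 135 as the exception at 20.5 CPM in CAS and 24.7 CPM in normal stroma. The log2 fold change was 1.46 (SE 0.24, edgeR adjusted p = 0.000216), so that this gene differed between dogs and between stroma types at once. Without dog 137 it was not called. ENSCAFG00000009236 had an adjusted p of 0.00219 in the same edgeR test at a log2 fold change of 0.57 (SE 0.12), under the fold limit, and was higher in CAS in 13 of 13 dogs. With the dog as a replicate block, in which CAS is compared with the paired normal stroma, 3 members were called in edgeR. ENSCAFG00000001101 had a log2 fold change of 1.63 (adjusted p = 0.00013) and ENSCAFG00000002646 one of 1.01 (adjusted p = 0.00034), both higher in CAS. ENSCAFG00000004059 was lower, at -1.14 (adjusted p = 0.00979). In that fit 606 of all genes (5.79%) and 237 of the eligible genes (3.72%) were called, compared to 5% of members, and at an unadjusted p below 0.05 there were 26.7% of members and 22.4% of eligible genes. The share of members called thus lay below that of the eligible genes without the block and above it with the block, on 1 and 3 genes.

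Labels of the dogs were not used in the choice, and the level of each dog, as the counts summed over its 2 libraries, was tested against 4 of them in edgeR. At an FDR below 0.05 there was no call for the neuter label (0% of 12972 genes), the subtype (0% of 12638), the age of the dog (0% of 13762) or the age of the sample (0% of 13762), and hence none among the 60 members. At an unadjusted p below 0.05, the neuter label had 774 genes (5.97%) and 0 members, and the subtype had 393 genes (3.11%) and 4 members (6.67%). The age of the dog had 311 genes (2.26%) and 3 members (5%), and the age of the sample had 799 genes (5.81%) and 3 members (5%). With limma on the mean log2 level of a dog, 17 genes were called for the neuter label and 0 for the others, and 0 members for any. At an unadjusted p below 0.05, limma had 7 members (11.7%) for the neuter label, against 11.7% of all genes. For the subtype these were 3 members (5%) against 1.57%, and for the age of the dog 3 (5%) against 1.45%. For the age of the sample they were 8 members (13.3%) against 5.73%. For the neuter label and the age of the sample, the share of members beside that of all genes thus depended on the model. For the subtype and the age of the dog it was the higher share in both models, on 3 or 4 members, and this was not tested. In edgeR the lowest unadjusted p of a member was that of ENSCAFG00000004059 with the age of the dog (log2 change per year 0.43, SE 0.11, edgeR p = 0.000848). That of ENSCAFG00000000641 was next for this label (0.29 per year, SE 0.08, edgeR p = 0.00299). Both had an adjusted p of 0.9999, so neither association passed the correction over all genes. With 5 to 8 dogs a side, these tests can miss differences of moderate size. Normal stroma libraries held between 617177 and 1365123 counts in the 5 neutered dogs and between 2503672 and 3932370 in the 8 others. The neuter label can therefore not be told apart from the depth of normal stroma.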

How the data were processed

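Per the labels and the study's methods, stranded total RNA libraries were made from LCM isolates. The authors quantified reads with kallisto 0.44.0 against Ensembl transcripts of CanFam3.1, summed them per gene with tximport and deposited estimated counts without normalisation. The values are whole numbers, the estimation divides reads between near-identical genes, and 0 identifiers matched a symbol. All 30 columns were used, 26 in the main results. The members, lists and tests were chosen with earlier results of these data known. CPM used the column total and a pseudocount of 1.

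The comparison of CAS with normal stroma used edgeR 4.0.16 in R 4.3.3 (filterByExpr, TMM, quasi-likelihood test, surrogate variables from svaseq of sva 3.50.0, their number from num.sv with 20 permutations), on counts rounded to whole numbers. Labels of the dog were tested on counts summed per dog. Alternatives were DESeq2 1.42.0, limma 3.58.1, other scalings, filters and limits, leaving out dogs, and the dog as a replicate block. The libraries are paired by the animal they were taken from. Deviations from the group means correlated within dogs with a mean of 0.144 (0.0252 to 0.317, over 0.1 in 8 of 13 dogs) and between dogs with -0.0106. The CAS library correlated best with normal stroma of its own dog in only 8 of 13 dogs. Correlations and groups were computed with Python 3.11.15, numpy 2.4.6 and scipy 1.17.1. Each dog gave 1 library per stroma type, so no technical replicate measures the error of a single library. The procedures were also run on simulated counts with the measured mean levels and library sizes. Those counts had the same composition in all libraries, apart from genes changed on purpose. They therefore do not bear on differences in library composition between dogs.

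Named genes were the 2 members with the highest r, the 2 with the largest range, the 2 nearest to the mean of each group of at least 5, and those called between CAS and normal stroma. ENSCAFG00000016065, ENSCAFG00000004059, ENSCAFG00000001620 and ENSCAFG00000000641 were named after their values were seen.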

Additional observations from a re-analysis of the deposited data

Results flagged for a closer look

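In 7 of 34 groups of dogs, the 5 labelled neutered or the 8 others for each of 17 named members, the lowest dog stood apart from the rest of its group by more than Dixon's critical value for the mean log2(CPM + 1) of its 2 libraries. A chance number of about 1.7 of 34 would hold only for unselected genes and independent groups. The genes were chosen for differences between dogs, so such dogs are favoured by the choice. Most of the flags also fell on the same dog, and members of group 3 vary together. The 7 can therefore not be read against 1.7. Dog 130 was apart in 5 members: ENSCAFG00000030616 at 0 (next dog 7.51), ENSCAFG00000023582 at 0 (3.19), ENSCAFG00000001620 at 0 (3.51), ENSCAFG00000017761 at 2.07 (4.10) and ENSCAFG00000016065 at 0.93 (6.32). Dog 138 was at 0 in ENSCAFG00000009876 (next dog 5.61). Dog 134 was at 1.60 in ENSCAFG00000002646 (next dog 4.58).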

How the results depend on the processing

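The 60 members became 42 with TMM library sizes (20 shared with the 60) and 56 without genes over 1% of a library in the total (24 shared). There were 51 with libraries thinned to 617177 counts (24 shared) and 61 with pseudocounts of 0.5 (58 shared) or 5 (51 shared). By Spearman's rho there were 61 (24 shared), and without dogs 123 and 131 there were 63 (31 shared). Larger moves were 305 at an r of 0.7, 7 at 0.9, 231 with no limit on the level and 26 with at least 10 counts in every library. With all 15 dogs there were 25 (12 shared), and without dogs 130 and 131 there were 158 (30 shared). Leaving out dogs 130 and 131 or 123 and 131, and re-pairing under TMM, were chosen after seeing the data. Leaving out 1 dog gave 47 to 113 members, of which 38 to 58 were shared. The count was 113 without dog 109, 109 without 134, 105 without 130, 99 without 131 and 92 without 121 or 132. The cause was not tested. For CAS against normal stroma, with paired libraries (the dog as a replicate block) 606 genes and 3 members were called, and with all 30 libraries 381 genes and 0 members. Other alternatives gave 551 to 762 genes and 1 member each. Leaving out 1 dog gave 373 (without dog 138) to 571 genes and 0 (without 137) to 2 members (without 134). By neuter label, 51 genes were called in normal stroma alone, 17 with limma and 0 to 28 with 1 dog left out (28 without 109). Depth in normal stroma followed the neuter label without overlap, so label and depth cannot be told apart in these calls. By age of the dog 1 gene was called in normal stroma alone, and by age of the sample 0 to 7 with 1 dog left out (7 without 134). Members called by any label were 0 under every alternative run. Of 17 named members, 6 had an r under 0.8 with TMM and 12 with some dog left out. No paired analysis was possible for the labels of the dog because both libraries of a dog share the label. Depths from 617177 counts limit low members and low values of other members, which rest on a few counts.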

Other observations

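The dogs 128 and 136 took no part in the choice, but their normal stroma libraries held 29284 and 32528 counts, which left few members with enough counts to read. In dog 128, of 11 members with at least 3 counts, 6 (54.5%) deviated to the same side of the mean of the 13 dogs in CAS and in normal stroma, compared to 390 of 621 other eligible genes (62.8%). In dog 136 these were 7 of 13 members (53.8%) and 363 of 734 other eligible genes (49.5%). At this depth it was not detectable whether the members followed the dog in these 2 animals. In CAS, where both dogs had deeper libraries, ENSCAFG00000016065 was at 29.3 CPM in dog 128, from 86 counts, and at 0 counts in dog 136, compared to 0 to 34.6 CPM in the 5 low dogs and 90.5 to 198 CPM in the 8 high dogs.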
